A study of Mus musculus with 6 samples.

Results

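The intestinal regional identity transcription factors considered here are the 9 genes *Pdx1*, *Onecut2*, *Cdx1*, *Cdx2*, *Gata4*, *Gata5*, *Gata6*, *Hnf4a* and *Hnf4g*. They were taken by name, through the GENCODE M21 symbol of each Ensembl identifier, from a table of 34866 genes, and all 9 were among the 16536 genes with enough counts to be tested. Their RNA was measured in adenomas excised from C57BL/6J mice of 2 genotypes, with 3 libraries each. Both groups carry a germline truncating *Apc* allele over a wild-type one (Apc1322T/+ or ApcMin/+), and the mice were between 100 and 120 days old. The comparison asks whether adenomas of the 2 genotypes differ in their RNA. RNA was extracted from whole frozen adenomas, and extractions from one mouse were typically pooled into a sample, so that a library is not a single cell type and need not be a single adenoma. The labels do not say which mouse gave which library, nor from where along the intestine the adenomas came, and the p-values measure the spread between these libraries.

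The regional factors divide the gut tube along its length. Pdx1 is a homeodomain factor of the pancreas, the distal stomach and the duodenum, Gata4 marks the duodenum and jejunum and is absent from the ileum, and the caudal homeodomain factors Cdx1 and Cdx2 mark the whole intestine and keep it distinct from the stomach. Onecut2 is a cut-homeodomain factor of endodermal epithelia, Gata5 and Gata6 are zinc finger factors related to Gata4, and the nuclear receptors Hnf4a and Hnf4g drive the genes of lipid absorption and of the brush border in the villus. Mice that lack both Hnf4 paralogues in the gut lose mature enterocytes, and loss of Cdx2 from the intestine lets gastric genes appear.

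All 9 factors were expressed in all 6 libraries, and the difference between the genotypes was small beside the variation between libraries for *Pdx1* and *Hnf4g*. *Pdx1* spanned a 9.11-fold range over the 6 libraries and *Hnf4g* a 4.38-fold range, with high and low libraries in both genotypes. *Onecut2* stayed within a 1.31-fold range. The estimates for *Cdx2*, *Gata4*, *Gata5*, *Gata6* and *Hnf4a* were between 0.69 and 0.82 of the Apc1322T level in ApcMin adenomas, and the adjusted p was above 0.01 for every factor. The epithelial markers as a group were lower and the stromal markers higher in the ApcMin libraries. Relative to the epithelial markers the values of the 2 genotypes overlapped for all 9 factors, where 37.2% of all tested genes did not overlap.

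Total estimated counts were between 23132461 and 33518324 per library, so that 3 counts, taken as the smallest signal, correspond to between 0.0895 and 0.130 CPM (counts scaled to library size), a limit that covers counting error only. The lowest value of any factor was 107 counts, for *Pdx1* in ApcMin replicate 2, so that counting error was not what limited these comparisons. Levels are given as log2 CPM after TMM normalisation, with a prior count of 2. All 10 epithelial markers were detected in all libraries, and their summed level was 15300 to 18620 CPM in the Apc1322T and 12460 to 14560 CPM in the ApcMin libraries. The 12 stromal and smooth muscle markers summed to 802 to 1882 CPM and 1449 to 3735 CPM in the same order. In whole adenomas, fewer cells of a type and less RNA per cell cannot be told apart.

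**Figure D1:**
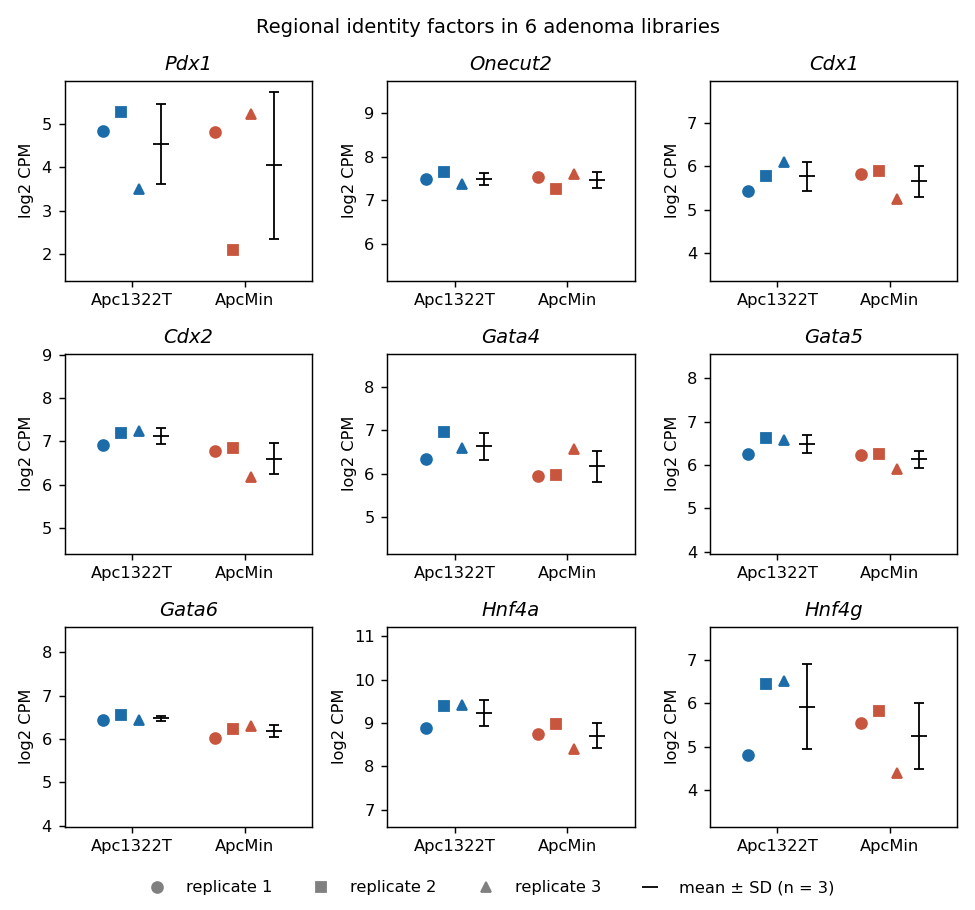
Level of each of the 9 factors (log2 CPM, vertical axis, each panel spanning the same number of log2 units) in the 3 Apc1322T (blue) and 3 ApcMin (red) adenoma libraries, with replicates marked by shape and the mean ± SD (n = 3) in black. *Pdx1* ranges from 2.10 to 5.29 and *Hnf4g* from 4.39 to 6.52, whereas *Onecut2* stays between 7.25 and 7.64, and only *Cdx2* and *Gata6* have all Apc1322T libraries above all ApcMin libraries.

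*Pdx1* (ENSMUSG00000029644, GRCm38 chr5:147269959-147275848, plus strand) and *Cdx2* (ENSMUSG00000029646, chr5:147300805-147307270, minus strand) are neighbours that point towards each other, with 24956 bases between them. The bases upstream of their RefSeq starts on GRCm38.p6 are printed here because the neighbours had unlike patterns over the libraries, and are read 5′ to 3′ on the strand of the gene. For *Pdx1* these are the 112 bases of chr5:147269847-147269958 (plus strand), and for *Cdx2* the 200 bases of chr5:147307300-147307499 (minus strand). They were searched on both strands for a GATA motif (AGATAA), a ONECUT motif (ATCAAT), an HNF4 motif (CAAAGTCC), a CDX motif (TTTATNG) and a TCF/LEF motif (ATCAAAG), and neither stretch holds one of them, so that no base is in capitals.
Pdx1 upstream: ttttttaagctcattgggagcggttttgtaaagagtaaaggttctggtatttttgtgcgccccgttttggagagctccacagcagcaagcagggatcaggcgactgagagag
Cdx2 upstream: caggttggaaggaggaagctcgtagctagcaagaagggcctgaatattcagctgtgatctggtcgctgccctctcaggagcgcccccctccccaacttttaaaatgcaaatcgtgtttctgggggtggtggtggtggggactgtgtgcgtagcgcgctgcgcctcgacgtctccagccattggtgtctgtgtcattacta
Of 32851 RefSeq promoter windows with a length of 200 bases, 8.42% hold the GATA, 5.80% the ONECUT, 0.931% the HNF4, 7.65% the CDX and 2.64% the TCF/LEF letters.

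*Pdx1* had 4.84, 5.29 and 3.51 log2 CPM in Apc1322T replicates 1, 2 and 3, and 4.82, 2.10 and 5.22 log2 CPM in ApcMin replicates 1, 2 and 3. One library of each genotype was low, ApcMin replicate 2 with 107 counts and Apc1322T replicate 3 with 258 counts, and the remaining 4 libraries had between 781 and 1177 counts. The SD within genotypes was 1.37 on the log2 scale, larger than for 99.3% of the 1000 genes nearest to it in mean level. The log2 fold change, ApcMin over Apc1322T throughout, was −0.18 (standard error, SE, 0.78, adjusted p = 0.925 in the quasi-likelihood test of edgeR, adjusted over all tested genes by Benjamini-Hochberg). It was 0.31 without ApcMin replicate 2, 0.21 without Apc1322T replicate 2 and −0.69 without ApcMin replicate 3, so that the direction rested on single libraries. Pancreatic genes stood out in ApcMin replicate 1, the only library in which the acinar genes *Ctrb1* and *Amy2a5*, the 2 that were tested of 12 pancreatic genes, were well expressed (6.23 and 5.94 log2 CPM, against at most −0.29 in the other libraries). The level of *Pdx1* in that library, 4.82 log2 CPM, was close to the 4.84 log2 CPM of Apc1322T replicate 1, its log2 fold change without the library was −0.34, and the part of pancreatic RNA in its level was not tested.

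*Cdx2* had 6.90, 7.20 and 7.24 log2 CPM in the Apc1322T libraries and 6.77, 6.84 and 6.19 log2 CPM in the ApcMin libraries. The groups did not overlap, although the highest ApcMin library was within 0.07 of the lowest Apc1322T library. The means were 7.11 ± 0.18 and 6.60 ± 0.36 log2 CPM (SD, n = 3), and the log2 fold change was −0.50 (SE 0.19, adjusted p = 0.312 by edgeR). The exact permutation test of the means gave p = 0.10 (two-sided), the smallest that the 20 assignments of 3 against 3 libraries allow. Without ApcMin replicate 3, the lowest library, the log2 fold change was −0.32.

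*Cdx1* (ENSMUSG00000024619, chr18:61018862-61036199, minus strand), the paralogue expressed mainly in crypts, did not show this separation. Its levels were 5.44, 5.77 and 6.09 log2 CPM in the Apc1322T libraries and 5.83, 5.89 and 5.24 log2 CPM in the ApcMin libraries. The highest library was an Apc1322T and the lowest an ApcMin library, and of the other 4 the ApcMin libraries were the higher pair. The log2 fold change was −0.11 (SE 0.23, adjusted p = 0.837 by edgeR), and it changed sign to 0.068 without Apc1322T replicate 3 and to 0.072 without ApcMin replicate 3.

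*Onecut2* (ENSMUSG00000045991, chr18:64340020-64400987, plus strand) had 7.48, 7.64 and 7.37 log2 CPM in the Apc1322T libraries and 7.53, 7.25 and 7.61 log2 CPM in the ApcMin libraries. The 2 groups covered nearly the same interval, and the log2 fold change was −0.031 (SE 0.13, adjusted p = 0.919 by edgeR). Its order over the libraries resembled that of *Pdx1* in part, with the lowest level in ApcMin replicate 2, the next in Apc1322T replicate 3 and the highest in Apc1322T replicate 2, over a range of 0.39 against 3.19 log2 units. The sign of this small difference depended on the scaling, since it was 0.027 with upper quartile normalisation. *Onecut1*, its paralogue, had at most 9 counts in any library and was not tested.

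The 3 GATA factors are zinc finger proteins that bind the same short motif. *Gata6* (ENSMUSG00000005836, chr18:11052064-11085635, plus strand), which is active in the crypt and along the whole intestine, had 6.45, 6.55 and 6.44 log2 CPM in the Apc1322T libraries and 6.02, 6.23 and 6.30 log2 CPM in the ApcMin libraries. These groups did not overlap, and the log2 fold change was −0.29 (SE 0.096, adjusted p = 0.288 by edgeR, exact permutation p = 0.10, the smallest possible).

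*Gata4* (ENSMUSG00000021944, chr14:63198922-63271692, minus strand) had 6.34, 6.96 and 6.60 log2 CPM in the Apc1322T libraries and 5.96, 5.97 and 6.58 log2 CPM in the ApcMin libraries. A pair of ApcMin libraries was below all Apc1322T libraries, and ApcMin replicate 3 was not (log2 fold change −0.46, SE 0.23, adjusted p = 0.380 by edgeR). Without that library the log2 fold change was −0.69, and without Apc1322T replicate 2 it was −0.28. *Gata5* (ENSMUSG00000015627, chr2:180325133-180334699, minus strand), which has been linked to the differentiated villus, had 6.25, 6.62 and 6.58 log2 CPM in the Apc1322T libraries and 6.23, 6.26 and 5.91 log2 CPM in the ApcMin libraries. Only Apc1322T replicate 1 and ApcMin replicate 2 overlapped, by less than 0.01 log2 units (log2 fold change −0.36, SE 0.14, adjusted p = 0.318 by edgeR). The spread of *Gata6* within genotypes was small, with an SD of 0.11 on the log2 scale that exceeded those of 34.2% of the 1000 genes nearest to it in level, whereas *Gata4* exceeded 88.5% of its own neighbours in level.

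*Hnf4a* (ENSMUSG00000017950, chr2:163506808-163572910, plus strand) is transcribed from an upstream and a downstream start, and the deposited gene counts add both. The 200 bases that end 50 bases before the upstream RefSeq start on GRCm38.p6 are printed because *Hnf4a* had the highest level of the 9 factors and because this window is the only one, among those of the 4 factors with a window here, that holds a searched motif. It is chr2:163506607-163506806, on the plus strand and printed 5′ to 3′, and capitals mark the ONECUT letters (ATCAAT).
Hnf4a upstream start: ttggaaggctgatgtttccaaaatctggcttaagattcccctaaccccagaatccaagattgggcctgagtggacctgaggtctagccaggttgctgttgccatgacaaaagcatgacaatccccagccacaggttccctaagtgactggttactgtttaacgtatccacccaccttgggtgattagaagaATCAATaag
A match of this kind describes the letters only, and binding to it was not tested.

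*Hnf4a* had 8.89, 9.38 and 9.42 log2 CPM in the Apc1322T libraries and 8.75, 8.97 and 8.40 log2 CPM in the ApcMin libraries. Apc1322T replicate 1 lay below ApcMin replicate 2, and the other libraries were separated by genotype. The means were 9.23 ± 0.29 and 8.71 ± 0.28 log2 CPM (SD, n = 3), with a log2 fold change of −0.53 (SE 0.20, adjusted p = 0.311 by edgeR). Without Apc1322T replicate 1 it was −0.67, and without ApcMin replicate 3 it was −0.39. *Hnf4g* (ENSMUSG00000017688, chr3:3508030-3658052, plus strand), which acts with Hnf4a in enterocytes, had 4.79, 6.45 and 6.52 log2 CPM in the Apc1322T libraries and 5.54, 5.82 and 4.39 log2 CPM in the ApcMin libraries. It was low in Apc1322T replicate 1 and in ApcMin replicate 3 (754 and 661 counts, against 1436 to 2097 counts elsewhere), and ApcMin replicate 3 lay below all Apc1322T libraries, whereas Apc1322T replicate 1 lay below the other 2 ApcMin libraries. Its log2 fold change was the largest of the 9 in size and also poorly determined, at −0.74 (SE 0.54, adjusted p = 0.523 by edgeR), and it ranged from −0.42 without ApcMin replicate 3 to −1.11 without Apc1322T replicate 1. The SD of *Hnf4g* within genotypes, 0.87, was above that of 98.8% of the 1000 genes nearest in level, and 6 of the 9 factors lay above 75% of their neighbours in this respect.

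Read together, the log2 fold change was below 0 for 9 of the 9 factors, as it was for 47.6% of all tested genes. Since the factors were measured in the same 6 libraries, these are not 9 independent results. Of the 9 factors, 0 had an adjusted p under 0.01 in the edgeR test, against 0% of all genes, and 0 in the Wald test of DESeq2, against 1.12% of its 17346 genes. At an unadjusted p under 0.05 there were 4 factors (*Cdx2*, *Gata5*, *Gata6* and *Hnf4a*), against 15.1% of all genes in either direction and 7.60% in the direction of these 4, which were lower in ApcMin adenomas. DESeq2 gave 5 factors at this level, with *Gata4* in addition, against 11.5% of the genes for which its Wald test gave a p-value. Both this count and the share of all genes at this level moved when a library was left out. The count was 5 without Apc1322T replicate 1 (24.4% of all genes), 4 without ApcMin replicate 2 (12.6%), 2 without ApcMin replicate 3 (9.87%), 1 without Apc1322T replicate 3 (8.63%) or without ApcMin replicate 1 (11.8%), and 0 without Apc1322T replicate 2 (6.92%). The groups did not overlap for 2 factors, against 21.0% of all genes, or 9.96% of all genes with the ApcMin libraries below. Without Apc1322T replicate 1 the groups of 6 factors did not overlap, where 47.7% of all genes did not, and without ApcMin replicate 2 the number was 4, with 31.7% of all genes. The median log2 fold change of all tested genes was 0.017 and its median size 0.21.

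**Figure D2:**
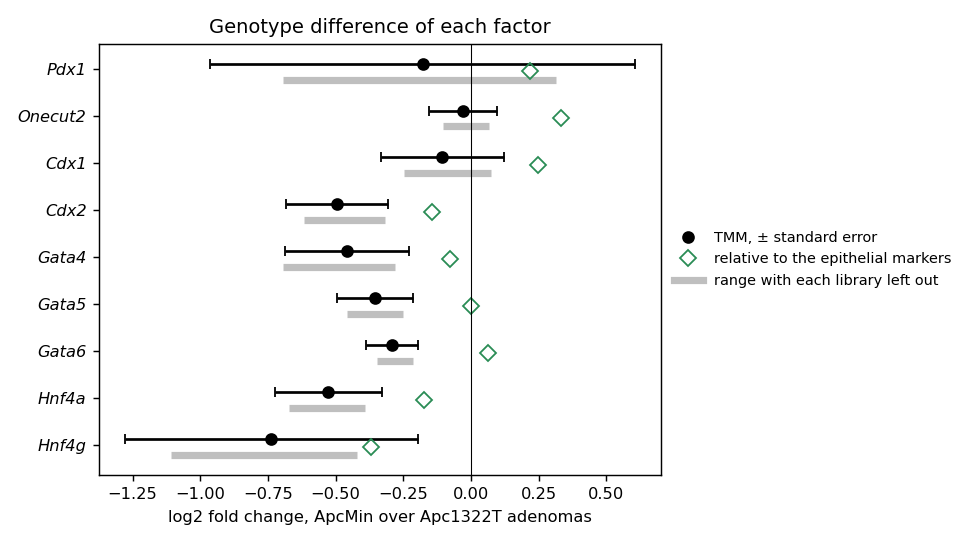
Log2 fold change (ApcMin over Apc1322T, horizontal axis) of each factor with its standard error (black), the range of the estimates when each library is left out in turn (grey bars), and the estimate relative to the epithelial markers (open diamonds). The 9 black points lie between −0.74 and −0.031, the grey bars of *Pdx1*, *Onecut2* and *Cdx1* cross 0, and the diamonds lie on both sides of 0.

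The epithelial markers moved with these differences. The log2 fold change was below 0 for all 10 of the epithelial markers (median −0.33), against 47.6% of all tested genes. The groups did not overlap for 6 of these markers, against 21.0% of all tested genes. The genes named by rule were *Epcam*, *Cdh1*, *Krt20*, *Cldn7* and *Elf3*, with log2 fold changes of −0.39, −0.32, −0.81, −0.42 and −0.27. All 12 stromal and smooth muscle markers were above 0 (median 0.74), with the fibroblast receptor *Pdgfra* at 1.00, the smooth muscle actin *Acta2* at 0.59 and *Tagln* at 0.63, and none of these markers had an adjusted p under 0.01. *Elf3* is also one of the partner factors, *Krt20* one of the Cdx targets and *Vil1* one of the Hnf4 targets counted here. When each factor was expressed relative to the mean log2 CPM of the epithelial markers in its own library, the groups overlapped for all 9. The difference between the means was then −0.16 for *Cdx2* (exact permutation p = 0.60), −0.17 for *Hnf4a* (p = 0.30), −0.00086 for *Gata5* (p = 1), 0.059 for *Gata6* (p = 0.70) and −0.11 for *Gata4* (p = 0.60). It was 0.32 for *Onecut2* and 0.24 for *Cdx1* (p = 0.30 for both), −0.32 for *Hnf4g* (p = 0.50) and −0.15 for *Pdx1* (p = 0.90), all two-sided exact permutation tests that cannot give a p below 0.10. Over all tested genes this scaling moved the median log2 fold change to 0.37, and the groups of 37.2% of them did not overlap. In the corresponding edgeR fit 4 factors (*Cdx2*, *Gata4*, *Hnf4a* and *Hnf4g*) remained below 0. For *Pdx1* that fit, which models the counts, gave 0.22. The −0.15 above has the opposite sign and is a difference between means of log2 values. The spread of *Hnf4g* and *Pdx1* remained, with SDs of 0.85 and 0.97 among the Apc1322T libraries and of 0.67 and 1.81 among the ApcMin libraries relative to the epithelial markers.

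Levels were compared between the factors after division by the length of their exons, since longer genes collect more reads. On this scale (CPM per kilobase), *Hnf4a* was the most abundant, with a mean of 107 CPM per kb and a range of 70.1 to 142 over the 6 libraries. *Cdx2* followed with a mean of 52.6, *Cdx1* with 30.5, *Gata5* with 24.5, *Gata4* with 22.3, *Hnf4g* with 21.0, *Gata6* with 12.5, *Onecut2* with 11.1 and *Pdx1* with 11.5 CPM per kb, in the order of their mean log2 values. Between neighbours in this order, *Hnf4a* was above *Cdx2*, *Cdx2* above *Cdx1* and *Cdx1* above *Gata5* in 6 of 6 libraries. *Cdx1* was not above all lower factors in every library, since *Hnf4g* (5.05) and *Gata4* (4.996) exceeded it (4.96 log2 CPM per kb) in Apc1322T replicate 2 and *Gata4* (4.61) exceeded it (4.43) in ApcMin replicate 3. The lower neighbours changed places, as *Gata5* was above *Gata4* in 4 libraries, *Gata4* above *Hnf4g* in 2, *Hnf4g* above *Gata6* in 4, *Gata6* above *Onecut2* in 5 and *Onecut2* above *Pdx1* in 2. *Pdx1* thus held the last place by its mean log2 level of 3.19 through its low libraries, since its level was 0.99 log2 CPM per kb in ApcMin replicate 2 and 4.18 in Apc1322T replicate 2. *Gata6* has 6 annotated transcripts, whose exons together cover 6508 bases against 3784 in the longest, and with the length of its longest transcript its mean was 4.41 in place of 3.63 log2 CPM per kb.

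**Figure D3:**
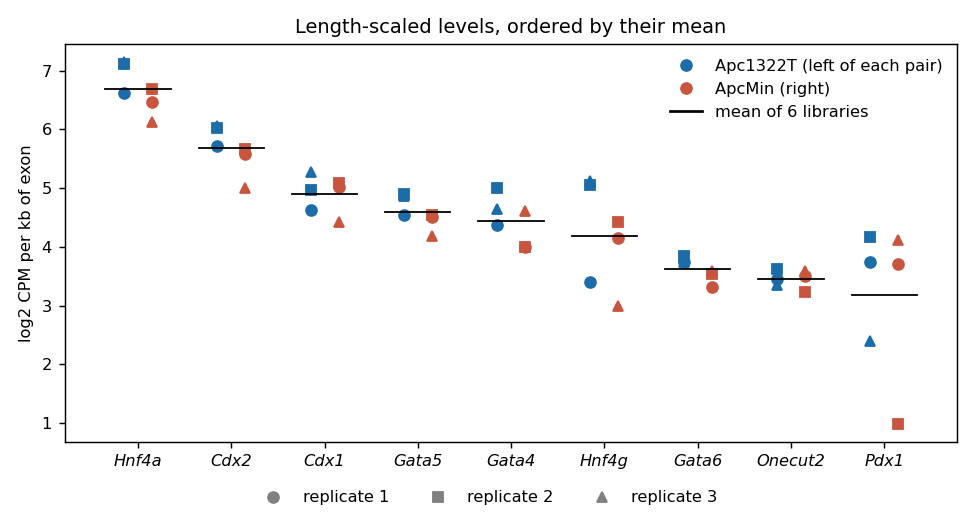
Level per kilobase of exon (log2 CPM per kb, vertical axis) of the 9 factors ordered by their mean over 6 libraries (black line), with Apc1322T libraries in blue on the left and ApcMin libraries in red on the right of each pair. *Hnf4a* (mean 6.70), *Cdx2* (5.68) and *Cdx1* (4.90) lead. The points of *Hnf4a* lie above those of all other factors, and from *Cdx2* on the points of neighbours in this order overlap.

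The balance between related factors was measured within each library, as the difference of their log2 CPM per kb, so that a change in the epithelial share of a sample cancels where both factors come from the epithelium. For *Cdx2* minus *Cdx1* it was 1.10, 1.06 and 0.78 in the Apc1322T libraries and 0.57, 0.58 and 0.58 in the ApcMin libraries. The groups did not overlap, and the 3 ApcMin values were nearly equal. *Cdx2* was thus 1.48 to 2.14 times as abundant as *Cdx1*, and the mean difference was smaller by 0.40 log2 units in ApcMin adenomas (exact permutation p = 0.10, two-sided, the smallest possible, and 0.60 after Benjamini-Hochberg adjustment over the 6 pairs compared). *Hnf4a* was between 4.06 and 9.34 times as abundant as *Hnf4g*, and the balance was 3.22, 2.06 and 2.02 log2 units in the Apc1322T and 2.33, 2.27 and 3.14 in the ApcMin libraries (exact permutation p = 0.60), so that the 2 libraries with little *Hnf4g* stood apart in either genotype. The 3 GATA pairs overlapped between the genotypes, with exact permutation p = 0.50 for *Gata4* against *Gata6* and p = 0.80 for *Gata4* against *Gata5* and for *Gata5* against *Gata6*. *Gata4* was the more abundant of *Gata4* and *Gata5* in ApcMin replicate 3, by 0.42 log2 units, and the less abundant in ApcMin replicates 1 and 2, by 0.52 and 0.54. For the neighbours *Pdx1* and *Cdx2* the ratio was between 0.0392 in ApcMin replicate 2 and 0.536 in ApcMin replicate 3 (exact permutation p = 1 between the genotypes).

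**Figure D4:**
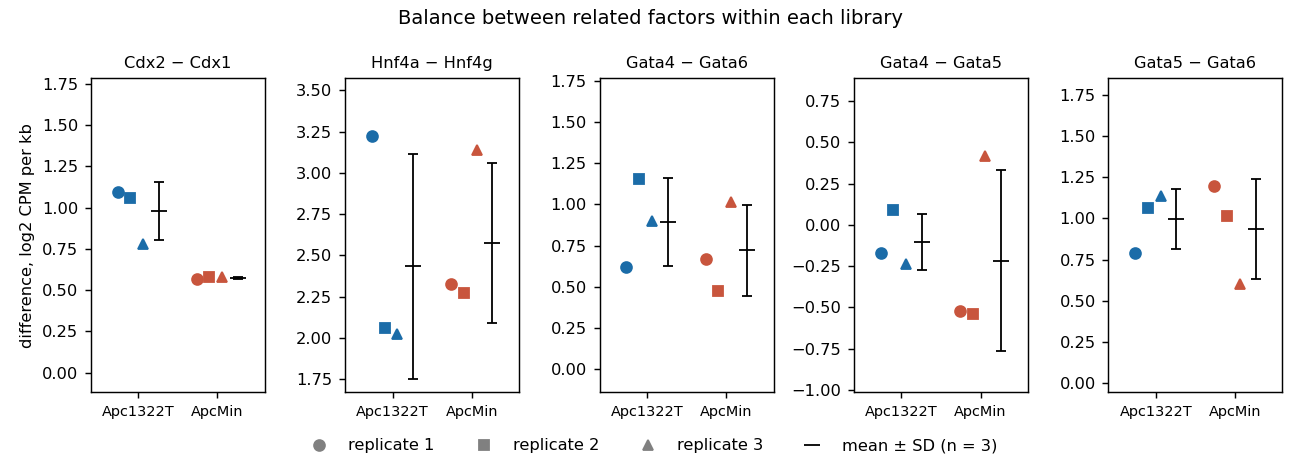
Difference in log2 CPM per kb between related factors within each library (vertical axis), for Apc1322T (blue) and ApcMin (red) adenomas, with the mean ± SD (n = 3) in black. For *Cdx2* minus *Cdx1* the ApcMin values of 0.57 to 0.58 lie below all Apc1322T values, and the other pairs overlap.

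The libraries in which a factor was low differed between the factors. *Cdx1*, *Cdx2*, *Gata5*, *Hnf4a* and *Hnf4g* were lowest in ApcMin replicate 3, *Pdx1* and *Onecut2* in ApcMin replicate 2, and *Gata4* and *Gata6* in ApcMin replicate 1. *Gata4* and *Pdx1*, both known from the proximal gut, were thus at 6.58 and 5.22 log2 CPM in the library with the least *Hnf4g* and *Cdx2*. For the 3 factors with the largest SD over the 6 libraries, the genes with the most similar pattern were sought, by the root mean square difference between log2 CPM values centred on each gene's mean over the 6 libraries, a description without a test.

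For *Pdx1* these were the homeobox gene *Nkx6-2* (0.31 log2 units), *Slc40a1* (0.31), which encodes the iron exporter ferroportin, and the sulfotransferase gene *Sult6b2* (0.38). *Slc40a1* had 8.51, 8.55 and 6.71 log2 CPM in the Apc1322T libraries and 8.26, 6.17 and 9.08 log2 CPM in the ApcMin libraries, low in the same 2 libraries as *Pdx1*. A pair of other genes of duodenal iron uptake, named after their values were seen, were also low there. The duodenal iron reductase *Cybrd1* was at 7.16 and 6.73 log2 CPM in Apc1322T replicate 3 and ApcMin replicate 2, against at least 9.40 in the other libraries (25th of all tested genes in likeness to *Pdx1*). The iron importer *Slc11a2* was at 6.42 and 7.11 log2 CPM there, against at least 8.45 elsewhere (190th in likeness). *Alpi*, one of the listed Hnf4 targets, was nearer to *Pdx1* than *Slc11a2* was (87th). Other genes of the proximal list did not follow *Pdx1*, as *Fabp1*, *Lct*, *Dnase1*, *Cyp2b10* and *Adh6a* were high in Apc1322T replicate 3 (10.33, 9.59, 7.14, 6.15 and 8.25 log2 CPM) and, with *Ada*, ranked between 12642nd and 16502nd in likeness.

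For *Hnf4g* the nearest genes were the butyrophilin-like gene *Btnl6* (0.053 log2 units), *A1cf* (0.090), a cofactor of apolipoprotein B mRNA editing, and the chloride channel gene *Clic5* (0.098). *A1cf* had 3.08, 4.53 and 4.59 log2 CPM in the Apc1322T libraries and 3.66, 3.80 and 2.50 log2 CPM in the ApcMin libraries. The factor *Maf* was 65th in likeness (0.22) and *Apob*, the structural protein of chylomicrons, was 200th (0.32), both named after their values were seen. *Apob* was the nearest of the listed Hnf4 targets, of which *Apoa4*, *Alpi* and *Pck1* did not follow *Hnf4g* (6624th, 13388th and 13547th). Genes of other lists, such as *Muc2* (284th) and *Slc51b* (295th), were nearer than the Hnf4 target *Apoa1* (352nd). For *Gata4* they were the carboxylesterase gene *Ces2g* (0.082), *Zfand2a* (0.089) and *Scamp5* (0.10), where *Gata4* itself had an SD of 0.39 over the libraries.

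**Figure D5:**
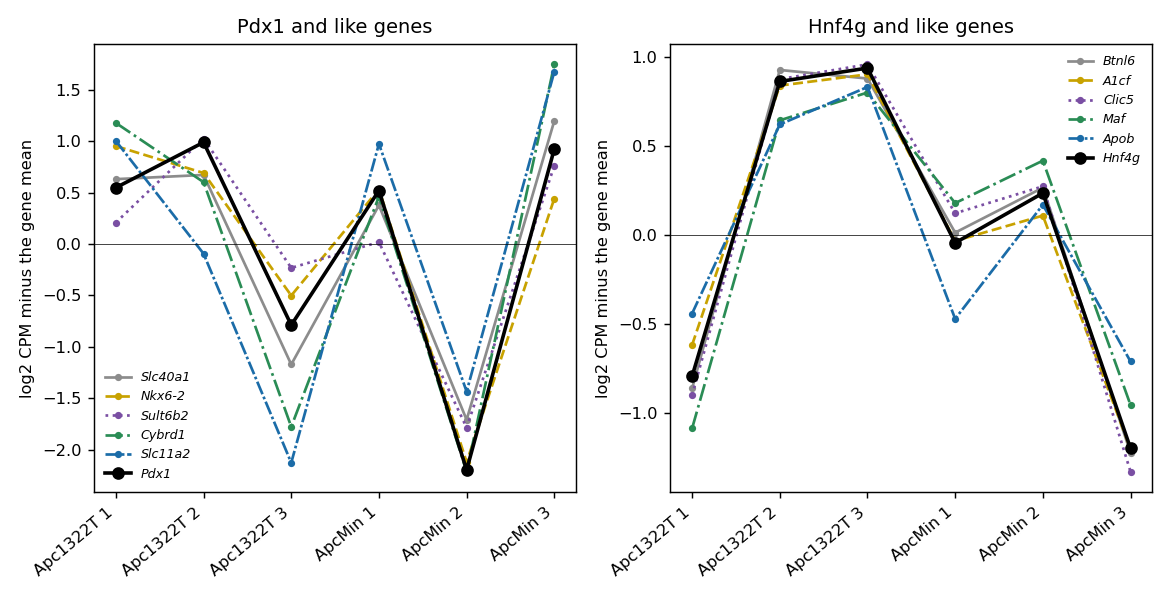
Log2 CPM minus the mean of each gene over 6 libraries (vertical axis) for *Pdx1* (left, black) and *Hnf4g* (right, black) with like genes, in the 6 libraries named on the horizontal axis. The lines only join the values of one gene, since the libraries have no order, and *Pdx1* with the iron transport genes is low in Apc1322T replicate 3 and ApcMin replicate 2, whereas *Hnf4g* is low in Apc1322T replicate 1 and ApcMin replicate 3.

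Of 19 partner factors, which act beside the regional factors in gut epithelium, 16 were tested and 0 had an adjusted p under 0.01 in the edgeR test. At an unadjusted p under 0.05, 1 was higher and 2 were lower in ApcMin adenomas, against 15.1% of all tested genes in either direction. The median log2 fold change was −0.17 over the list and 0.017 over all genes. The one that was higher was *Foxa2*, a forkhead factor of foregut endoderm, with 1.93, 2.14 and 1.48 log2 CPM in the Apc1322T and 2.54, 2.71 and 3.69 log2 CPM in the ApcMin libraries (log2 fold change 1.21, SE 0.36, adjusted p = 0.279). *Zfpm1*, which encodes the GATA cofactor Fog1, was at −0.43 (SE 0.094, adjusted p = 0.257) and the epithelial factor *Elf3* at −0.27 (SE 0.096, adjusted p = 0.307). *Zfpm1* was at 6.99, 7.16 and 6.95 log2 CPM in the Apc1322T and at 6.70, 6.59 and 6.53 log2 CPM in the ApcMin libraries, without overlap. *Cdx4* had 0 counts in all 6 libraries, and *Onecut1* and *Zfpm2* were under the filter on low counts.

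Genes known as targets of the Cdx and Hnf4 factors were mostly below 0. Over all tested genes, 47.6% were below 0 and 15.1% had an unadjusted p under 0.05 by edgeR. The libraries of 21.0% of all tested genes did not overlap. Of the 12 Hnf4 targets, 12 had a log2 fold change below 0 (median −0.60), with 2 at an unadjusted p under 0.05, which were *Mttp*, the microsomal lipid transfer protein (−0.96, SE 0.32, adjusted p = 0.288 by edgeR), and the brush border cadherin *Cdhr5* (−0.73, SE 0.25, adjusted p = 0.289). *Mttp* had 9.44, 10.56 and 10.53 log2 CPM in the Apc1322T libraries and 9.06, 9.60 and 9.20 log2 CPM in the ApcMin libraries, and like *Hnf4a* its Apc1322T replicate 1 lay below ApcMin replicate 2. Of the 10 Cdx targets, 7 were below 0 (median −0.48), and 3 had an unadjusted p under 0.05, the intestinal cadherin *Cdh17* (−0.53), the guanylin receptor *Gucy2c* (−0.67) and the keratin *Krt20* (−0.81). *Gucy2c* was the one Cdx target whose libraries did not overlap, with 7.38, 7.77 and 7.92 against 7.12, 7.18 and 6.76 log2 CPM. None of these targets passed an adjusted p of 0.01, and the part of the epithelial share in their values was not tested.

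Genes that mark a position along the gut were counted in the same way. Of all tested genes, 47.6% were below 0 and 15.1% had an unadjusted p under 0.05 in either direction. Of 9 tested proximal genes, 6 had a log2 fold change below 0 (median −1.09), with *Fabp1*, a fatty acid binding protein, at −1.32 (SE 0.45, adjusted p = 0.298 by edgeR). Of 10 ileal genes, 7 were above 0 (median 0.10), and 3 of these had an unadjusted p under 0.05. *Fabp6*, the ileal bile acid binding protein, had 13, 13 and 14 counts in the Apc1322T libraries and 4560, 2105 and 31 counts in ApcMin replicates 1, 2 and 3. *Slc10a2*, the ileal bile acid transporter, followed it with 108, 116 and 195 counts against 2348, 1982 and 141 counts. ApcMin replicates 1 and 2, in which *Fabp6* and *Slc10a2* were high, were also the libraries with the least *Gata4* (5.96 and 5.97 log2 CPM). ApcMin replicate 3, in which both genes were low, had 6.58 log2 CPM of *Gata4*. Not all ileal genes shared this pattern. *Cubn* was at 5.43 and 5.77 log2 CPM in Apc1322T replicates 2 and 3, against 5.51 and 5.95 in ApcMin replicates 1 and 2. *Nr1h4* was highest in ApcMin replicate 3 (4.64 log2 CPM). The proximal genes *Cybrd1* and *Slc40a1* were at 9.40 and 8.26 log2 CPM in ApcMin replicate 1. *Lct*, *Dnase1* and *Cyp2b10* of the proximal list were lowest in ApcMin replicate 3 (2.63, 1.38 and 2.34 log2 CPM). *Cybrd1*, *Slc40a1* and *Slc11a2* were highest in that library (10.69, 9.08 and 10.22 log2 CPM). The position of the adenomas is not given in the labels, and its part in these values was not tested. The third ileal gene with an unadjusted p under 0.05, the peptide hormone gene *Pyy*, was at 0.64 (SE 0.26, adjusted p = 0.329 by edgeR). Of 5 tested duodenal endocrine genes, 4 were below 0 (median −0.45) and 0 had an unadjusted p under 0.05, and none had an adjusted p under 0.01.

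Among 10 tested gastric genes 4 were above and 6 below 0 (median −0.34), where 47.6% of all tested genes were below 0. The gastric lipase gene *Lipf* had 4, 10 and 4 counts in the Apc1322T and 312, 436 and 239 counts in the ApcMin libraries (adjusted p = 0.219 by edgeR), and the proton pump gene *Atp4a* was at 1.70 (SE 0.55, adjusted p = 0.287), whereas the trefoil factor *Tff1* was at −1.17 (SE 0.45, adjusted p = 0.315). The gastric factor *Sox2* had at most 5 counts in any library and was not tested. Of 5 tested colonic genes 3 were above 0 (median 0.40), with the water channel gene *Aqp8* at 1.99 (SE 0.74, adjusted p = 0.311). Of 6 tested immune markers 4 were above 0 (median 0.60), with the macrophage marker *Adgre1* at 1.03 (SE 0.38, adjusted p = 0.311). None of these genes had an adjusted p under 0.01.

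The reads of the 9 factors are nearly unique to them. No stretch of 50 bases, the read length, in the transcripts of 8 factors occurs in another gene of the count table, and for *Onecut2* a single one of 16185 does. The annotation places the antisense genes *Plut* at *Pdx1*, *Gata5os* at *Gata5* and *Hnf4aos* at *Hnf4a*, and *1010001N08Rik* lies on the opposite strand at *Gata6*. None of these has a row in the count table. The library kit keeps the strand, and whether the quantification used it is not given in the sources used here. Of the overlapping genes on the same strand, only the pseudogene *Gm37000* at *Hnf4g* has a row in the table.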

How the data were processed

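RNA-seq was analysed for 3 Apc1322T and 3 ApcMin adenoma libraries, grouped by the sample labels. The authors quantified single-end stranded reads of 50 bases against the GRCm38 transcriptome (GRCm38.p6 per the labels) by means of Salmon. The deposited estimated counts per gene are not normalised, and 31.1% of them are not whole numbers. These were rounded. Symbols from GENCODE M21 matched 34582 of 34866 identifiers. Genes were filtered with filterByExpr (minimum count 10, minimum total count 15), normalised by TMM and tested between genotypes in edgeR 4.0.16 (R 4.3.3) by quasi-likelihood with robust estimation. P-values were adjusted by Benjamini-Hochberg over 16536 genes, at the threshold of 0.01 that the study used with DESeq2. The DESeq2 Wald test, an alternative here, called 194 of 17346 genes at this threshold. Log2 CPM used a prior count of 2, and the levels per kilobase the union of exons. Permutation tests were exact and two-sided over 20 assignments.

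The members and gene lists were chosen with earlier results of these data known. All members are named, and from each list at most 5 genes, by p, with an unadjusted p under 0.05 or libraries that do not overlap, together with the 3 nearest genes of the 3 members with the largest SD. Genes said to be named after their values were seen are exceptions, as are single genes with few counts. Further genes of the lists, named to show where a pattern was or was not shared, did not meet this rule either.

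Alternatives were the size factors and the Wald test of DESeq2 1.42.0, upper quartile normalisation, voom of limma 3.58.1, no robust estimation, other filters, a prior count of 0.5, an adjusted p under 0.05, the longest transcript as length, each library left out, a replicate block, and an offset for the epithelial markers. The labels number the replicates 1 to 3 in both genotypes. The test was checked on simulated counts, in which it recovered 92.5% of 200 genes that had been given log2 differences of 1.5 to 3 among 16289 genes at an adjusted p under 0.01. These differences were larger than that of any factor, of which the largest in size was −0.74 for *Hnf4g*. The check therefore does not show how well differences of the size of the factors would be recovered. In the real libraries the test called 0 of 16536 genes at this threshold. Libraries of one genotype differed by a chi-square per gene of at least 23.3, so that none was a copy of another. Promoter sequences are from RefSeq on GRCm38.p6. A promoter window was found for 4 of the 9 members (*Pdx1*, *Cdx2*, *Gata5* and *Hnf4a*). A further partner factor is not reported here.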

Additional observations from a re-analysis of the deposited data

How the results depend on the processing

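No factor had an adjusted p under 0.01 under any alternative, nor under 0.05 in the edgeR fit, and *Cdx2*, *Gata4*, *Hnf4a* and *Hnf4g* were below 0 in all 15 alternatives. The lowest adjusted p of any factor was 0.0934, for *Hnf4a*. The count of 4 factors at an unadjusted p under 0.05 was 2 with upper quartile normalisation (14.5% of all genes), 2 with the replicate block (12.8%), 0 relative to the epithelial markers (32.3%), and 0 to 5 with a library left out. Deviations from the genotype mean had correlations of −0.014, 0.16 and −0.29 between same-numbered libraries, for replicates 1, 2 and 3. Between differently numbered libraries these correlations ranged from −0.359 to 0.329. With 3 libraries per genotype they cannot show whether the numbers pair the samples. The replicate block reversed no factor. The count of 2 factors without overlap was 0 relative to the epithelial markers (37.2% of all genes) and 2 to 6 with a library left out. The edgeR fit relative to the epithelial markers reversed *Pdx1* (0.22), *Onecut2* (0.33), *Cdx1* (0.25), *Gata5* (0.0014) and *Gata6* (0.063). The median log2 fold change of all genes was 0.37 in that fit. Upper quartile normalisation reversed *Onecut2* (0.027). With a library left out the values ranged from −0.69 to 0.31 for *Pdx1*, from −0.10 to 0.067 for *Onecut2* and from −0.25 to 0.072 for *Cdx1*. The level of *Gata6* per kilobase was 4.41 with the longest transcript in place of 3.63. The cause of these shifts was not tested. Leaving out a library lowers the number of libraries and also removes its own values, and these cannot be told apart. Counting error was small at these depths, and the 3 libraries per genotype limit the precision.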
